A study of Mus musculus with 2 samples.

Results

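The genes that encode the replication-dependent histones, the proteins that package newly copied DNA, were followed in ATAC-seq peak lists of mouse CD8+ T cells. ATAC-seq marks accessible DNA, because a transposase inserts sequencing adapters where the DNA is open. Members were the protein-coding genes of the mm10 gene table whose symbol began with Hist1h to Hist4h or with H1f, H2ac, H2bc, H3c or H4c and a number, and 67 of 21887 protein-coding genes met this rule. By symbol they were 10 linker histone H1 genes, 17 H2A, 16 H2B, 12 H3 and 12 H4 genes. A peak belonged to a member where it overlapped the gene span extended by 2 kb on each side, and each peak was counted once.

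The series holds a treatment library and a control library, 1 of each, so the groups could not be tested against each other and each difference below is one between 2 libraries, without replicates. The groups follow the titles. The labels do not say what was given, and a second label field reads "Combined treatment" for the treatment library and "Treatment" for the control library. The series title names Peml-1 CD8+ T cells, the genotype field holds only the words global chromatin accessibility, and strain, age, number of animals and what the control cells received are not given in the labels. All 8 CD8 T cell marker genes, among them Cd8a and Cd3e, had a peak within 2 kb in both libraries, but so had 2 of 2 CD4 T cell, 4 of 5 B cell, 3 of 3 erythroid and 3 of 4 melanocyte markers, and 3 in the treatment library and 4 in the control library of 5 myeloid markers, so that the presence of a peak did not separate cell types.

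Replication-dependent histone genes are short and lack introns, and their messages end in a stem-loop in place of a poly(A) tail. They are transcribed mainly in S phase, when the coactivator Npat and its partners gather at the gene clusters in a nuclear compartment called the histone locus body. Most H2A and H2B genes lie head to head and share the DNA between their starts. In T cells the demand for histones rises when an activated cell divides. The rule also takes in H1f0 and H1f10, linker histone genes used outside S phase, and H1f7 and H1f8, linker histone genes of the germ line. The testis forms H1f6, H2bc1 and H2ac1 lie within or near the large cluster.

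Of the members, 53 lay on chromosome 13, 10 on chromosome 3, and 2 each on chromosomes 6 and 15. On chromosome 13 they formed a group of 17 genes from H2bc13 to H2ac24 (21715711 to 21833475), one of 5 genes from H2ac12 to H2bc11 (22035122 to 22043658), one of 29 genes from H4c8 to H1f1 (23531044 to 23764412) and the testis genes H2bc1 and H2ac1 (23933725 to 23934913). The chromosome 3 group ran from H2ac21 to H2bc18 (96219885 to 96270192).

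The DNA before the starts of 7 genes and between the starts of 2 divergent pairs is shown as examples along the range of differences described below, with testis genes that have no start peak beside them. All sequences are from RefSeq, assembly GRCm38.p6, and are written 5′ to 3′ on the strand given. Capitals mark matches, on either strand, to TATAAA (the TATA box), CCAAT (the box bound by NF-Y), ATTTGCAT (the octamer known from H2B promoters) and AAACACAAA (a box known from H1 promoters).

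The first sequence is the whole stretch between the divergent starts of H2bc23 and H2ac23 (chr13:21810200-21810366, + strand), under a peak whose difference between the libraries was near the median of the divergent pairs.
H2bc23 to H2ac23: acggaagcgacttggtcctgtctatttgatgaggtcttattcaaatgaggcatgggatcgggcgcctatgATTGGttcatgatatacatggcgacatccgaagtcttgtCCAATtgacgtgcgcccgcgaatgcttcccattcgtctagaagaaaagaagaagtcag
The second is the stretch between H2ac22 and H2bc22 (chr13:21787249-21787487, + strand), under a peak with the smallest difference of any divergent pair with both starts known.
H2ac22 to H2bc22: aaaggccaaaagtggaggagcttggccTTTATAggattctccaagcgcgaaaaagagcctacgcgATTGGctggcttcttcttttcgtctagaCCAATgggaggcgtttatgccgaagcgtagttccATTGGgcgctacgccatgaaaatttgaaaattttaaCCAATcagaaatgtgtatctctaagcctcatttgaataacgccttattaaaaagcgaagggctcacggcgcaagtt
Then follow the 200 bases before the starts of H3c2 (chr13:23752145-23752344, + strand) and H3c3 (chr13:23745522-23745721, − strand), with the largest differences among the H3 genes, and of H3c6 (chr13:23562386-23562585, − strand), an H3 gene with a small one.
H3c2: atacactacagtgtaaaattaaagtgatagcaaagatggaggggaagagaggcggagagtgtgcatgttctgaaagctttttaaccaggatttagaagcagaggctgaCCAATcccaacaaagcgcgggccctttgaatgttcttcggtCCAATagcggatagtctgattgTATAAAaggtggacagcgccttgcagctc
H3c3: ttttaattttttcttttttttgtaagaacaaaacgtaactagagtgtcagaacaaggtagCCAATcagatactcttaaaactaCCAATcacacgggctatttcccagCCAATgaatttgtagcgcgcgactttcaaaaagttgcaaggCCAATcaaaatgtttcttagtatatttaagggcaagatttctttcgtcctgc
H3c6: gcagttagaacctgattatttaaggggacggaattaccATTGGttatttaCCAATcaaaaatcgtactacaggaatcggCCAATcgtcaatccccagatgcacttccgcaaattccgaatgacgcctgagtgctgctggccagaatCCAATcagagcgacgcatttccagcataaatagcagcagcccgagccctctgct
H4c6 (chr13:23551669-23551868, − strand) had the largest difference among the H4 genes, and its 200 bases held no match.
H4c6: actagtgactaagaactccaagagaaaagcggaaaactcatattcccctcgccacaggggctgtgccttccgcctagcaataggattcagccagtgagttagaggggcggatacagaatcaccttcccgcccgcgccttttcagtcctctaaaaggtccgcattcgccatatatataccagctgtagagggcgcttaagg
H1f4 (chr13:23622559-23622758, − strand) was among the H1 genes with the smallest difference.
H1f4: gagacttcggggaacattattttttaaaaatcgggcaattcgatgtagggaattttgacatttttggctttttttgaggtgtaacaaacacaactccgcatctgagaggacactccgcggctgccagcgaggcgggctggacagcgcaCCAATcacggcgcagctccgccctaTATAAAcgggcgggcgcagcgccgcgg
H1f6 (chr13:23695611-23695810, + strand) and H2ac1 (chr13:23934237-23934436, + strand) are testis genes with no peak over their starts.
H1f6: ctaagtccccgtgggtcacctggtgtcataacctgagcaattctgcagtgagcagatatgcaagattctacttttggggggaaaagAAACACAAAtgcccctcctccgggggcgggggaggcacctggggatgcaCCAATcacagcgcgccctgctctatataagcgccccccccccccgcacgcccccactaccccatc
H2ac1: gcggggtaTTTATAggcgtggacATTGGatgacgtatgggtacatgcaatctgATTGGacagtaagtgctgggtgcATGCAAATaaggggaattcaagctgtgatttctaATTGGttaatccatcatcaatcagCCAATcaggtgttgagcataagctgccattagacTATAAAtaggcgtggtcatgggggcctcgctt

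The treatment list held 64910 peaks and the control list 85137 on chromosomes 1 to 19, X and Y. Total read numbers were not used here. The authors' fold enrichment and −log10 p of each peak together gave back the whole number of reads at its summit and the local background for 100% of peaks in each list. The lowest background, a stand-in for depth, was 15.0 reads in treatment and 14.2 in control, a log2 ratio of 0.09. Of all peaks at protein-coding genes found in both lists, 83.4% had lower summit coverage in treatment, with a median log2 ratio of −0.45, and every histone value below is read beside this shift.

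Accessible regions at the histone genes were present in both libraries almost without exception. There were 57 histone peaks in treatment and 57 in control, whereas all protein-coding genes together had 44284 in treatment and 56663 in control. Of the histone peaks in treatment, 1 (1.75%, 95% Wilson interval 0.31 to 9.29) had no overlapping control peak, against 6.15% of peaks at all genes. Of those in control, 3 (5.26%, 1.81 to 14.4) had no overlapping treatment peak, against 26.9% at all genes. These intervals cover counting error only. Histone peaks were taller than most, with a median of 1754 reads in control against 247 at all genes, and shares at peaks of like height were not computed. At the ribosomal protein genes, with a control median of 890.5 reads, 1.64% of treatment peaks and 17.1% of control peaks had no partner. With a 50% reciprocal overlap required, 8.77% of histone peaks in treatment and 8.77% in control had no partner, against 13.4% in treatment and 32.3% in control at all genes.

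By gene, 63 of 67 members had a peak in both libraries. None had a peak in treatment only, where 0.429% of all genes did. H1f8, the oocyte linker histone, and H1f7, a linker histone of spermatids, had a peak in control only, as did 4.20% of all genes. H2bc1 and H2ac1, the testis forms of H2B and H2A, had no peak in either library, like 23.9% of all genes. The members without a peak in treatment were thus all genes of the germ line. The number of peaks was higher in treatment for H4c8 and H1f1 (4.94% of all genes), lower for H1f7 and H1f8 (34.2% of all genes) and equal for the other 63. H1f6, the testis linker histone, counted as having a peak only through the start of its neighbour H4c3: none of its own span lay under a peak in either library.

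Of the 4 peaks found in a single library, 3 were weak or stood on a high background. The only treatment peak without a partner lay upstream of the H4 gene H4c8 (chr13, 23530291 to 23530487), with 282 reads at the summit over a background of 154. The control peak without a partner beside H4c1 (chr13, 23760165 to 23760349) had 686 reads over a background of 400, an enrichment of 1.71-fold. The control peak of H1f8 (chr6, 115945769 to 115945952) had 45 reads. The control peak near H1f7 (chr15, 98254939 to 98255442) was the exception, with 181 reads over a background of 14.2.

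Histone peaks were tall in both lists, and taller in control. The median summit coverage of histone peaks was 1038 reads in treatment and 1754 in control, against 218 in treatment and 247 in control at all protein-coding genes. Ranked within its own list, the median histone peak stood at the 89.2 percentile of coverage in treatment and the 96.9 percentile in control. The local background around histone peaks was high as well, with a median of 120 reads in treatment and 272 in control, against 24.9 in treatment and 25.7 in control at all genes. Because enrichment is coverage over background, the median enrichment of histone peaks was 8.35-fold in treatment and 6.75-fold in control. At all genes it was 7.73-fold in treatment and 8.35-fold in control. Histone peaks had a median width of 873 bp in treatment and 997 bp in control, and covered 55198 bp in treatment and 64256 bp in control.

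At the 54 histone peaks that both lists held, summit coverage was lower in treatment in all 54. The median log2 ratio of treatment over control was −0.65, with a 95% order-statistic interval over peaks of −0.82 to −0.54, against −0.45 at all genes. Intervals of this kind take the peaks as separate draws and hold no spread between libraries. A log2 ratio below −1 was met by 12 histone peaks (22.2%), near the 19.2% of all shared gene peaks. By that count summit coverage at the histone genes did not stand out from all genes. The local background was lower in treatment at all 54 peaks, against 67.3% at all genes, with a median log2 ratio of −1.06 (−1.16 to −0.999) against −0.17. It was below −1 at 34 histone peaks (63.0%), against 3.06% of all shared gene peaks. These shares are not on equal terms. The lowest background in treatment was 15.0 reads, and the median control background was 25.7 at all genes, against 272 at histone peaks. Many peaks at all genes could thus not have reached −1, and places of equally high background are compared below. Among the 25 shared histone peaks left when they had to lie at least 10 kb apart, the median background ratio was −1.03. Neighbouring histone peaks are not independent, since the window over which the peak caller takes its background can hold the same reads for several of them, and the peaks' own reads too.

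Fold enrichment moved the other way from coverage. It was higher in treatment at 40 of the 54 histone peaks (74.1%), against 27.8% of all shared gene peaks. Of the 54, 7 were wider in treatment, against 21.1% at all genes, and the median difference in width, treatment minus control, was −110.5 bp against −63 bp at all genes.

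**Figure D1:**
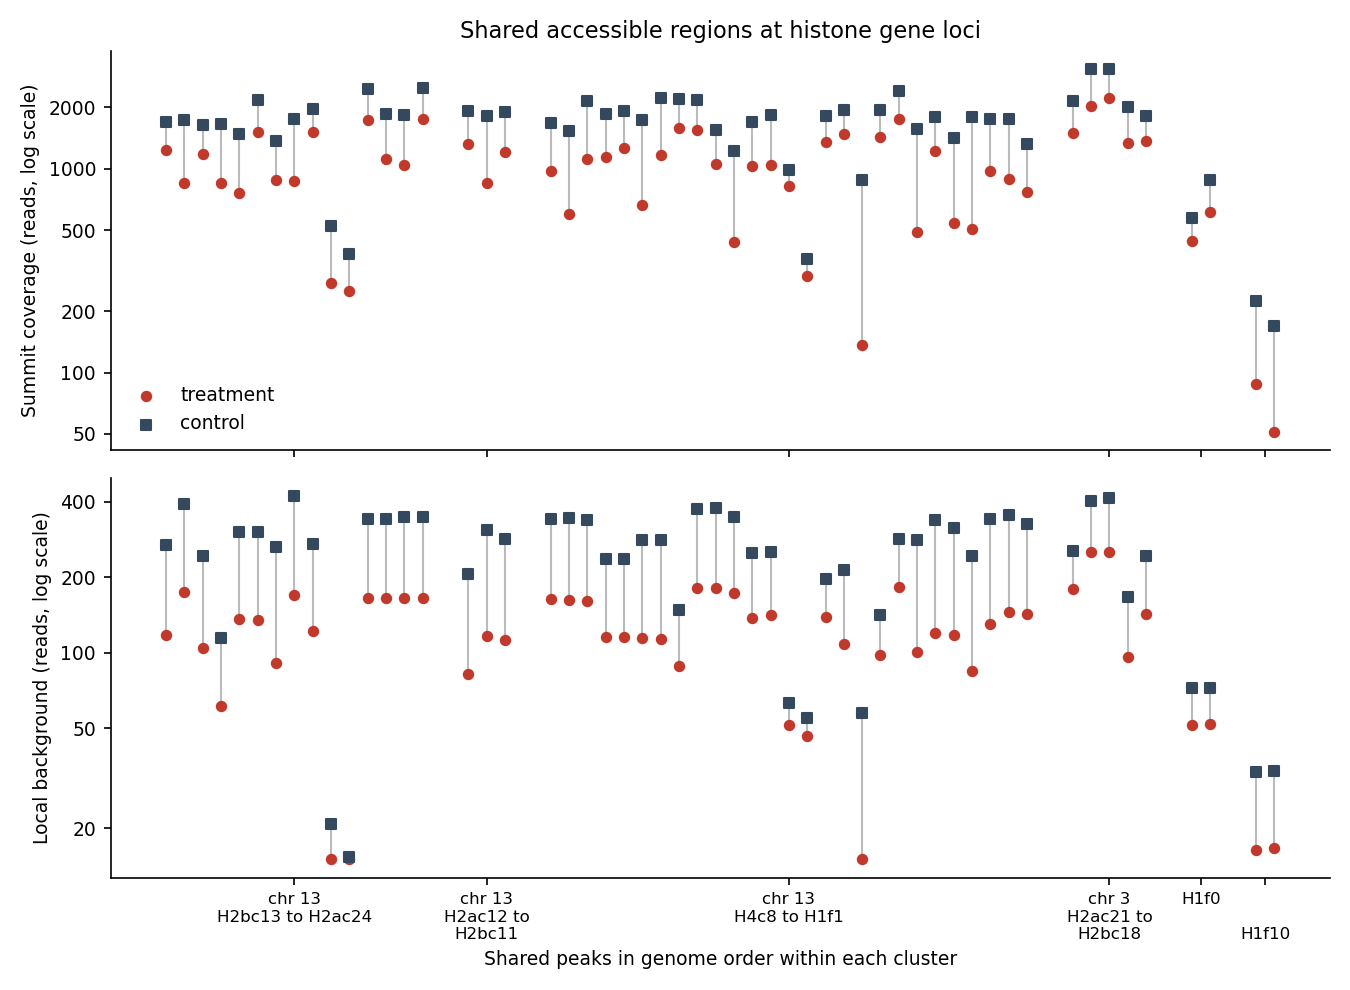
Each shared histone peak in treatment (red circles) and control (dark squares), in genome order within each cluster; the upper panel gives reads at the summit and the lower panel the local background in reads, both on log axes. All 54 peaks were lower in treatment in both panels, and the largest gap in coverage, 137 reads in treatment against 884 in control, was at the far end of H2bc4.

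Peaks of like height at other genes had a smaller median difference. Between 1200 and 2500 reads at the control summit there were 43 shared histone peaks and 6137 shared peaks of other genes. The median log2 coverage ratio was −0.71 for the histone peaks and −0.16 for the others. In this range 9 histone peaks (20.9%) had a coverage ratio below −1, against 2.86% of all gene peaks in the range. The background ratio had a median of −1.08 for the histone peaks and −0.19 for the others, and it was below −1 at 31 histone peaks (72.1%), against 2.22% of all gene peaks in the range. Selecting on control height favours peaks that happen to be high in control, so the peaks were also matched on the geometric mean of both libraries. Between 800 and 3000 reads by that mean, 45 histone peaks had a median coverage ratio of −0.65 and 9765 peaks of other genes one of −0.15.

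Places of equally high background at other genes gave a like contrast. With a control background of 200 to 500 reads there were 40 histone peaks and 930 peaks of other genes. The background ratio had a median of −1.12 for the histone peaks and −0.21 for the others. It was below −1 at 31 of the histone peaks (77.5%), against 5.36% of all gene peaks in the range. Of all 52 gene peaks in that range with a ratio below −1, 31 were histone peaks of chromosome 13. The coverage ratio in the same range was −0.71 for the histone peaks, and 4.43% of all gene peaks in the range had one below −1.

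**Figure D2:**
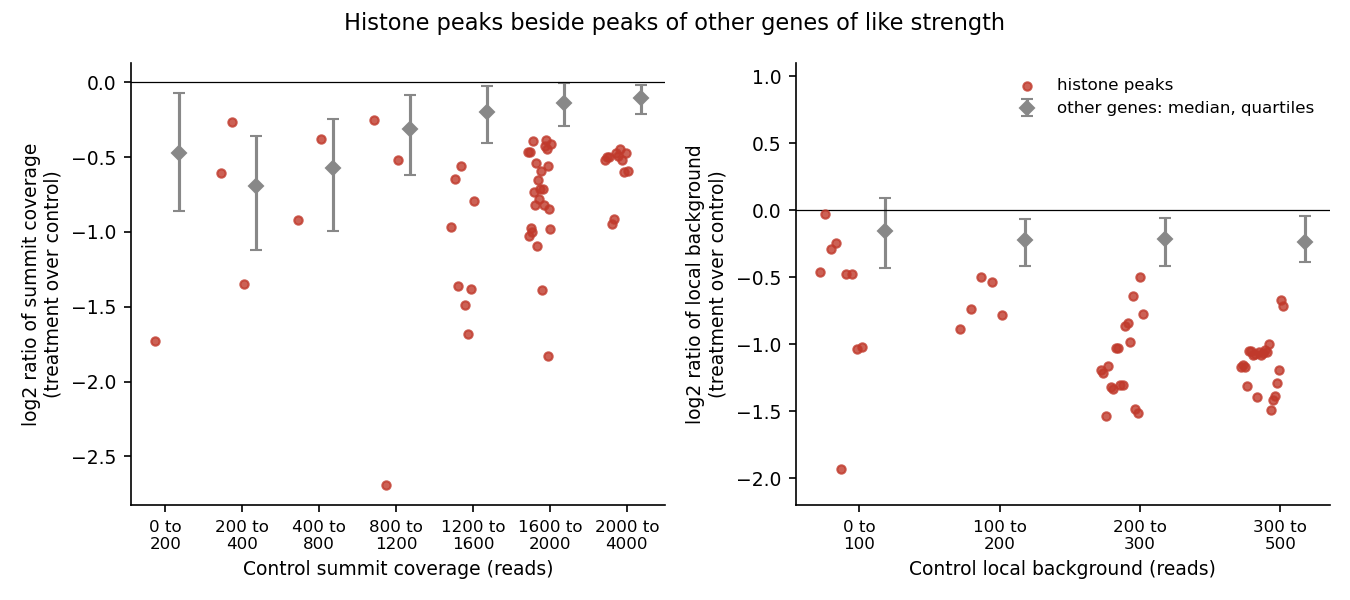
The log2 ratio of treatment over control for each shared histone peak (red points) beside peaks of all other protein-coding genes in the same range (grey diamonds, median with quartiles), for summit coverage by control coverage on the left and for local background by control background on the right. With a control background of 200 to 500 reads the histone peaks had a median background ratio of −1.12 and the others one of −0.21.

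Peaks near the histone genes that belonged to no member differed less in background than the histone peaks. Inside the clusters lay 8 peaks in treatment and 8 in control that belonged to no member, and their 7 shared pairs had a median coverage ratio of −0.55. Their median background, 15.0 reads in treatment and 15.8 in control, was near the lowest either list holds, so a large fall in background could not have been seen there. Within 200 kb outside the clusters there were 104 peaks in treatment and 126 in control. The 100 shared ones had a median coverage ratio of −0.48 and a background ratio of −0.33, below the −0.17 of all genes, and 2 of them had a background ratio below −1. The median background of the peaks outside the clusters was 23.5 reads in treatment and 35.0 in control, so there too the room for a large fall was small.

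The clusters differed in degree. In the group from H2ac12 to H2bc11 the median ratios were −0.65 for coverage and −1.33 for background. From H2bc13 to H2ac24 they were −0.65 for coverage and −1.15 for background, and from H4c8 to H1f1 −0.78 for coverage and −1.06 for background. The chromosome 3 group stood apart from these, with −0.52 for coverage and −0.72 for background, and none of its 5 shared peaks had either ratio below −1. Its tallest peaks lay over H2ac19 and H3c15, with 2036 reads in treatment and 3090 in control, and over H2ac18 and H3c14, with 2221 reads in treatment and 3083 in control. These are near-identical copies facing away from each other, and reads may have been placed on either, so their levels are uncertain.

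Peaks over several starts differed from peaks over 1 start. A shared peak over 2 or more histone gene starts had 1500 reads in treatment and 1975 in control at the median (13 peaks), and its coverage ratio ran from −0.65 to −0.39. A shared peak over a single histone gene start had 934.5 reads in treatment and 1752.5 in control (32 peaks), with a median ratio of −0.83 and a range of −1.83 to −0.38. All of the 10 start peaks with a ratio below −1, as paired by longest overlap, were over a single histone gene start. The background did not follow this divide, with a median ratio of −1.05 for peaks over 2 or more starts and −1.08 for peaks over 1. The other 9 shared peaks covered no start of the RefSeq table. It gives no start for 5 members, so a peak counted over 1 start may cover a second, as may that of H2ac6 beside H2bc4.

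Of the 9 divergent H2A and H2B pairs with both starts in the RefSeq table, 8 had a single peak over both starts in each library. The exception was the testis pair H2bc1 and H2ac1. The starts of these pairs lay 164 to 281 bp apart. Over the 8 pairs, summit coverage ran from 1056 to 1738 reads in treatment, with a median of 1413, and from 1554 to 2462 in control, with a median of 1944. The coverage ratio ran from −0.65 at H2ac11 and H2bc11 to −0.39 at H2ac22 and H2bc22. The summit lay between the starts in all 8 pairs in treatment and in 5 of them in control. At H2bc23 and H2ac23, whose intervening sequence is printed above, the peak had 1738 reads in treatment and 2462 in control, over a background of 165 in treatment and 341 in control.

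H2A and H2B genes outside the pairs counted were less uniform. H2ac4, an H2A gene with its own peak, had 545 reads in treatment (95% Poisson interval 500 to 593) and 1420 in control (1347 to 1496), a log2 ratio of −1.38. H2ac10 had 597 reads in treatment and 1531 in control, a ratio of −1.36. These were the only H2A genes with a ratio below −1. No H2B gene had a start peak with a ratio below −1, the lowest being −0.82 at H2bc6. H2ac6, which shares its peak with H2bc4, had 1484 reads in treatment and 1939 in control, a ratio of −0.39, like the highest of the pairs. H2bc4 has no start in the RefSeq table, so these neighbours could not be counted as a divergent pair. The same holds for H2ac20 and H2bc21. The Poisson intervals cover counting error within a library and say nothing of the spread between cultures or animals.

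The H3 genes, which encode the replication-dependent forms of histone H3, had the lowest ratios of the 5 classes at their starts. The median over the 10 H3 genes with a shared start peak was −0.98, and 5 of the 10 were below −1, against 10 of 57 over all classes. H3c2 had 504 reads in treatment (461 to 550) and 1788 in control (1706 to 1873), a ratio of −1.83, the lowest of any member when peaks were paired by longest overlap. H3c3 followed, with 489 reads in treatment (447 to 534) and 1567 in control (1490 to 1647), and then H3c4, with 437 reads in treatment (397 to 480) and 1225 in control (1157 to 1296). H3c6 was the opposite case, with 1582 reads in treatment and 2190 in control, a ratio of −0.47. Its peak had the highest enrichment of the large cluster in treatment, at 17.6-fold. H3c2, H3c3 and H3c4 were lower in background as well: it was 85.0 reads in treatment and 242 in control at H3c2, and 100.3 reads in treatment and 281 in control at H3c3.

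The H4 genes lie singly and each encodes the same core protein. Over the 11 H4 genes with a shared start peak the median ratio was −0.84, with coverage from 662 to 1428 reads in treatment and from 1489 to 1948 in control. H4c6 was lowest, with 662 reads in treatment (613 to 714) and 1736 in control (1655 to 1820), a ratio of −1.39. H4c9 was the only other H4 gene below −1, with 849 reads in treatment and 1812 in control. H4c3 was the highest, with 1428 reads in treatment and 1948 in control, a ratio of −0.45. Of the 12 H4 spans, 11 lay wholly under peaks in treatment and 11 in control.

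The linker histone genes differed widely among themselves. H1f2, a somatic S-phase form, had 1757 reads in treatment and 2396 in control, a ratio of −0.45. H1f4, another, had 1351 reads in treatment and 1814 in control, a ratio of −0.43. H1f3, of the same group, had 1175 reads in treatment and 2217 in control, a ratio of −0.92. H1f1 had 768 reads in treatment and 1330 in control. At H1f5 a single control peak of 1374 reads was overlapped by 2 treatment peaks, 878 reads near the end of the gene and 291 over its start, and the pairing by longest overlap took the first. Set against the peak over its start, H1f5 had 291 reads in treatment and 1374 in control, a ratio of −2.24, lower than that of H3c2. The same kind of split at H4c1 left 1046 reads in treatment over its start, against 1762 in control, a ratio of −0.75.

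The linker genes outside the clusters were covered far less. H1f0, a linker histone of resting cells, had 440 reads in treatment (400 to 483) and 573 in control (527 to 622) at its start, the smallest start difference of any member at −0.38. H1f10 had 88 reads in treatment and 224 in control at its start, and 51 in treatment and 169 in control at a second peak upstream, so that its values rest on few reads.

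Peaks far from a start behaved differently from gene to gene. H2bc6, whose RefSeq span is long, had the most peaks, 5 in each library. The one at 23592836 to 23593705 had 824 reads in treatment and 981 in control, and its 15.3-fold enrichment was the highest of the large cluster in control. H2bc22 had 3 peaks in each library, and at the taller of those away from its start the enrichment was 17.3-fold in treatment, second to H3c6, and 24.1-fold in control, the highest of any histone peak there, with 276 reads in treatment and 522 in control. The background there was 15.0 reads in treatment and 20.7 in control, far from that at the starts. H2bc4 had at its far end the largest fall of all, 137 reads in treatment against 884 in control, a ratio of −2.69. H2bc7 overlapped 3 peaks in each library, but 2 of these lay over its neighbours. The highest enrichment in the group from H2ac12 to H2bc11 was at H2ac12 and H2bc12, 15.8-fold in treatment and 9.27-fold in control, and on chromosome 3 at H4c14, 13.7-fold in treatment and 12.1-fold in control.

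The summits at single-start genes lay farther upstream in treatment. Over the 31 histone peaks that covered exactly 1 protein-coding start of the RefSeq table, the summit stood at a median of 67 bp inside the gene in treatment and 126 bp in control. It lay inside the gene in 19 peaks in treatment (61.3%) and 27 in control (87.1%), against 40.9% in treatment and 44.9% in control over all 8005 such peaks. In 15 histone peaks (48.4%) the treatment summit was more than 50 bp upstream of the control summit, against 11.1% of all such peaks. In 3 (9.68%) it was more than 50 bp downstream, against 9.83% of all. The upstream moves were spread unevenly over the classes, with 6 of 7 H3 genes, 3 of 4 H2B genes and 3 of 11 H4 genes. These counts rest on the pairing by longest overlap, which at H4c1 and H1f5 took a treatment peak not over the start. By the treatment peak over the start, the summit was downstream of control at H4c1 (−102 bp, against −968 bp). At H1f5 it was upstream (49 bp, against 254 bp). The H3 summits had a median of −4 bp in treatment, just upstream of the start, and 160 bp inside the gene in control. The H4 summits hardly differed, at 116 bp in treatment and 117 bp in control. Summit coverage was compared between these positions and not at a fixed base.

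**Figure D3:**
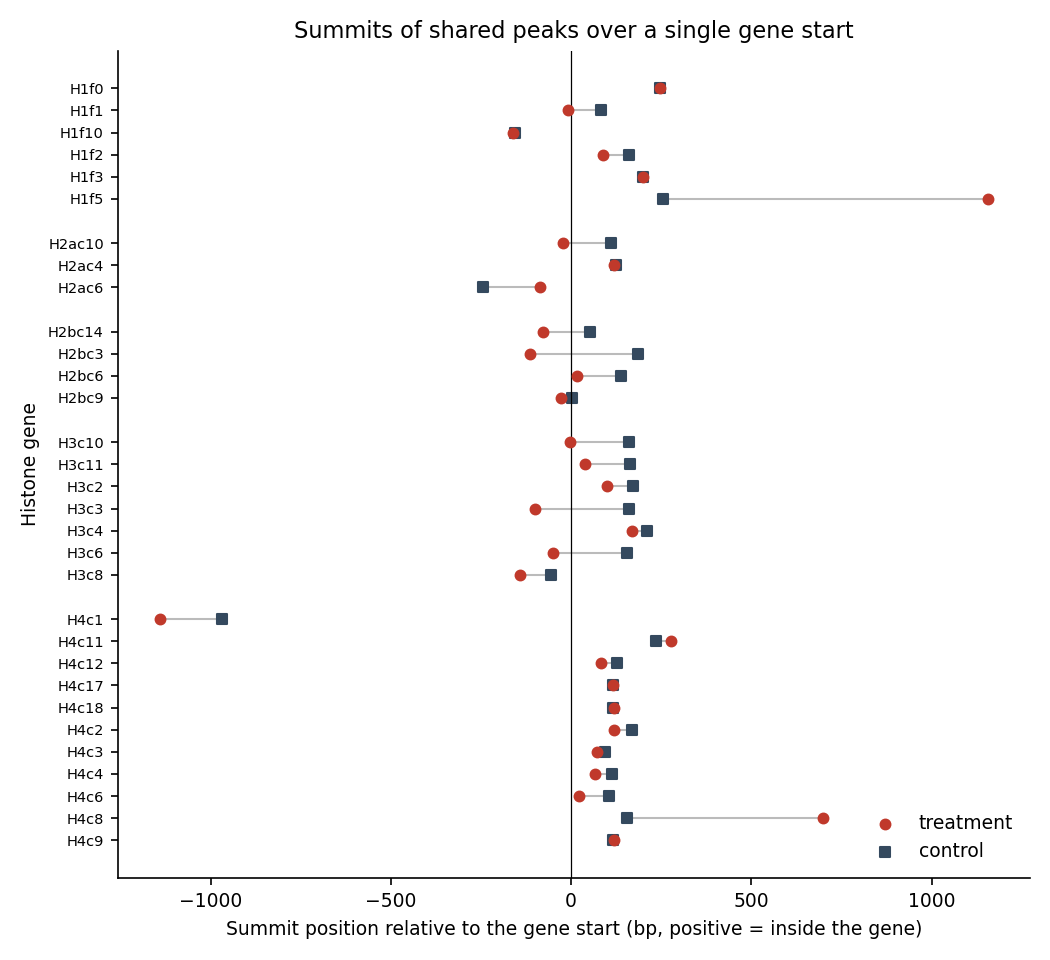
Position of the peak summit relative to the gene start in bp (positive values lie inside the gene) for the 31 histone genes whose shared peak covered no other start of the RefSeq table, in treatment (red circles) and control (dark squares). In 15 genes the treatment summit was more than 50 bp upstream, 6 of them H3 genes; at H1f5 and H4c1 a single control peak was paired with 1 of 2 treatment peaks.

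Less of the short histone genes lay under peaks in treatment, but no more often than for all short genes, histone genes included. Among members of up to 1 kb with peaks over the span in both libraries, 31 of 55 (56.4%) had a smaller share covered in treatment, against 69.9% of all genes of that length, and 1 had a larger share, against 4.42%. The median share covered was 89.6% in treatment and 100% in control for the histone genes.

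Other gene groups were set beside these values. The 81 ribosomal protein genes, another large set of highly expressed small genes, had 121 shared peaks with median ratios of −0.06 for coverage and −0.20 for background. The 27 DNA replication genes, which like the histones serve S phase, had −0.33 for coverage and −0.33 for background, and they had fewer peaks in treatment at 12 genes, more at 2 and as many at 13. Among them Rrm2, a subunit of ribonucleotide reductase, had 2 peaks in treatment, against 5 in control, with 976 reads in treatment and 1438 in control at its strongest shared peak. Tyms, thymidylate synthase, had 365 reads in treatment and 761 in control, a ratio of −1.06.

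The 10 histone variant genes, which are expressed outside S phase, were covered by 22 peaks in treatment, against 27 in control, with median ratios of −0.38 for coverage and −0.28 for background. H2az1, encoding H2A.Z, had 2414 reads in treatment and 2594 in control, and H3f3a, encoding H3.3, had 1981 reads in treatment and 1898 in control. These peaks were above the median histone peak in coverage in both libraries, and their ratios were −0.10 at H2az1 and 0.06 at H3f3a. H3f3b, which also encodes H3.3, had 2064 reads in treatment and 2689 in control, a ratio of −0.38. Over the 10 genes the ratio at the strongest shared peak ran from −1.56 at Macroh2a2, with 56 reads in treatment and 165 in control, to 0.11 at H2az2. Macroh2a1, a macroH2A gene, had 8 peaks in treatment, against 13 in control.

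The 26 genes for histone gene expression and mRNA 3′ end processing were covered by 61 peaks in treatment, against 69 in control, with median ratios of −0.23 for coverage and −0.18 for background. Slbp, which binds the histone stem-loop, had 2 peaks in treatment, against 3 in control. Its strongest shared peak had 2041 reads in treatment and 2184 in control. Upf1, a helicase of histone mRNA decay, had 3 peaks in treatment and 6 in control. The number of peaks was lower in treatment at 7 of the 26 genes, higher at 1 and equal at 18. Of these 4 lists, the DNA replication genes had the lowest median background ratio, at −0.33.

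Cell type markers also moved, and their part in the histone values was not tested. The median coverage ratio was −0.17 over 47 shared peaks of CD8 T cell markers, −0.57 over 6 of CD4 T cell markers and −0.83 over 12 of B cell markers, of which 5 were below −1. It was 0.18 over 7 peaks of myeloid markers, −0.39 over 3 of erythroid and −0.38 over 6 of melanocyte markers. The tallest melanocyte marker peak, at Pmel, had 2871 reads in treatment and 3051 in control, and it was also the strongest of the neighbouring gene Cdk2. The B cell marker coverage was thus lower than the histone median of −0.65. No marker peak of any of these lists had a background ratio below −1, but in some lists the room for one was small. The lowest background in treatment was 15.0 reads. The median control background was 28.6 at B cell and 22.4 at myeloid marker peaks, and lower still at erythroid ones. It was higher at CD8 T cell (91.6), CD4 T cell (55.7) and melanocyte (38.4) marker peaks. For B cell, myeloid and erythroid markers a large fall in background could thus mostly not have been seen.

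**Figure D4:**
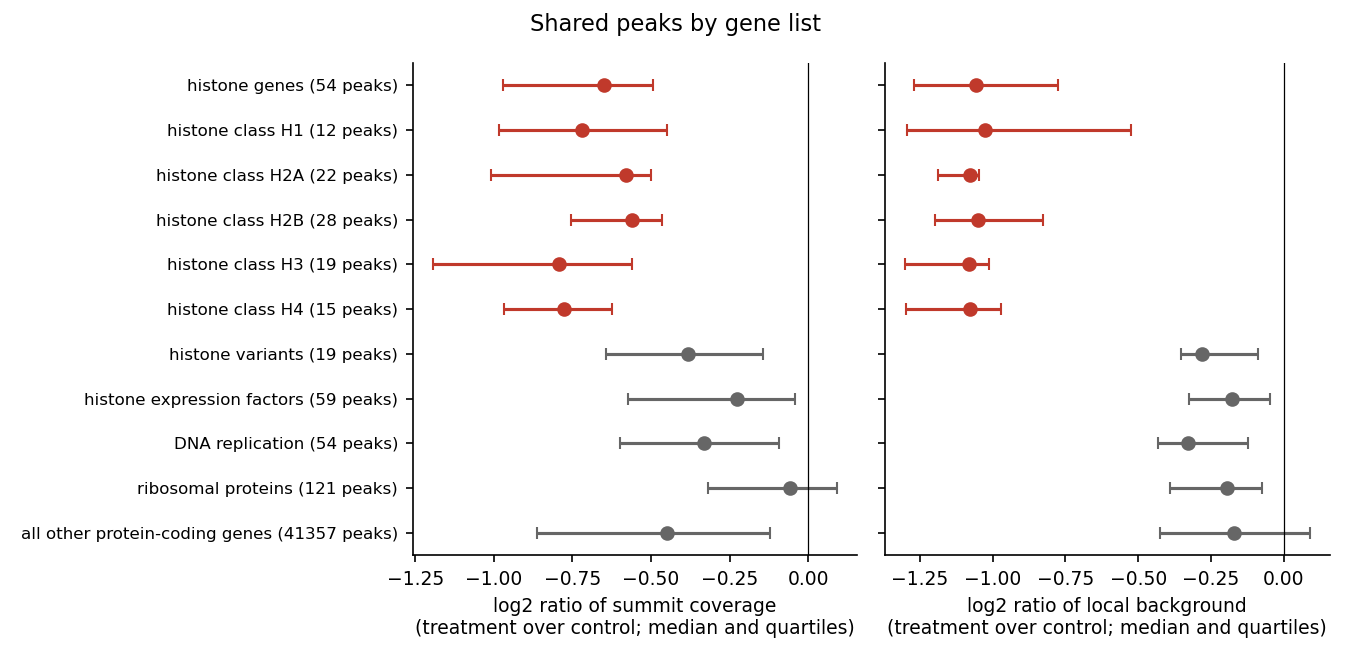
Median and quartiles of the log2 ratio of treatment over control at shared peaks, for summit coverage on the left and local background on the right, for the histone genes and their classes (red) and for other gene lists (grey). The histone background median of −1.06 lies below the medians of −0.33 to −0.17 of the other lists; the classes share peaks, so they are not separate samples.

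The promoter sequences of the histone genes shared short elements by class. In windows of 250 bases before to 50 after the start, 62 of the 67 members were found, with 63 windows. CCAAT on either strand was in 52 of 63 windows (82.5%), against 37.4% of 32851 windows of all genes. It was in all 17 H2A, all 15 H2B and all 10 H3 windows, but in 3 of 11 H4 and 7 of 10 H1 windows. TATAAA was in 34 windows (54.0%), against 13.6% of all. The octamer ATTTGCAT was in 13 (20.6%), against 1.74%, and these were 6 H2A and 7 H2B windows. AAACACAAA was in 3 windows (4.76%), against 0.767%, and GGTCCTC was in none, against 5.29%. A match says only that these letters lie in the window. The starts of the 9 divergent H2A and H2B pairs lay 164 to 281 bp apart, so the windows of a pair overlap. A match between the starts can thus count once as H2A and once as H2B, as the octamer of H2ac1 and H2bc1 did. The H2A and H2B counts are therefore not counts of separate sites. Genes at both ends of the range held the same element: H3c2 and H3c3, at the low end, and H3c6, at the high end, all held CCAAT, and H2ac1, with no peak in either library, held the octamer, the TATA box and CCAAT.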

How the data were processed

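ATAC-seq had been carried out on 2 libraries, 1 treatment and 1 control. Per the submitters' processing notes, the authors used cutadapt 2.5, Bowtie2 2.3, Picard 2.20, MACS2 and the mm10 build. Settings, read filters and any shift for the transposase are not given in the sources used here. Peaks were deposited per library, and each carries the authors' score, a ratio (fold enrichment above its local background), a −log10 p-value and a −log10 q-value, all of them the peak caller's own values. No deposited −log10 q-value was below 2.00.

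Summit coverage and local background were solved from fold enrichment and −log10 p, taking the fold as coverage plus 1 over background plus 1 and p as a Poisson tail. A whole-number coverage was accepted where it gave the deposited −log10 p within 0.001 or within 0.001% of its value, whichever was larger. On 20000 simulated peaks per library 100% were recovered, and after p was disturbed 0.875% (treatment) and 0.9% (control) still came out whole. Peaks were paired by at least 1 bp of overlap, and a control peak with several partners took the one with the longest overlap. Log2 ratios are treatment over control. Genes, starts and promoter windows came from RefSeq tables of GRCm38.p6, the assembly of mm10, and 5 members (H2bc21, H4c14, H3c7, H2bc4 and H3c1) have no start there. The analysis used Python 3.11.15, numpy 2.4.6, pandas 2.3.3, scipy 1.17.1 and matplotlib 3.10.9.

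Members and gene lists were chosen with earlier results of these data known. Genes named are those with a peak in 1 library only or in none, the 5 highest and 5 lowest coverage ratios at the start, the highest enrichment per cluster, the most peaks, and pairs sharing a peak. Further genes were added after their values were seen, to show each class. The shares of single-library peaks carry 95% Wilson intervals, and the read numbers of some start peaks 95% Poisson intervals. Alternatives changed the peak threshold, the distance to the gene, the overlap rule and the members.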

Additional observations from a re-analysis of the deposited data

How the results depend on the processing

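Of the recomputed values, 13 moved beyond the limits set and 112 did not. The limits were 1.5 times for counts, the counting interval for shares and the order-statistic interval over peaks for medians. Where sharing required summits within 150 bp, 22.8% of treatment and 22.8% of control histone peaks had no partner, against 12.8% in treatment and 31.8% in control at all genes. The low single-library shares thus depend on how sharing is defined, since with a 50% reciprocal overlap 8.77% of treatment and 8.77% of control histone peaks had no partner, against 13.4% in treatment and 32.3% in control at all genes. The control share without a partner was 1.92% with the gene span alone, 2.17% for chromosome 13 and 1.96% without H1f0, H1f7, H1f8, H1f9 and H1f10. With the gene span alone, 0% of treatment histone peaks had no partner, 1 member had a peak in control only and 4 had none. Members with a peak in control only numbered 1 with lists of equal length, with a −log10 q of at least 10 and with 10 kb on each side. They numbered 0 for chromosome 13 alone and without H1f0, H1f7, H1f8, H1f9 and H1f10. With 10 kb on each side 0 members had no peak, and the median background ratio was −0.89. Among shared peaks at least 10 kb apart, an alternative chosen after the data were seen, 13 of 25 had a background ratio below −1. The median coverage ratio stayed negative under every alternative run for it. Most of these took peaks from among the same 54, all of them lower in treatment, so its sign could not change there. The division by lowest background could only lower the ratios. With 10 kb on each side, which added peaks, the median coverage ratio was −0.59. No paired analysis was possible because each group has 1 library. Read depth, read placement among near-identical histone genes and the transposase shift could not be examined from peak lists. Counts near a threshold rest on few genes, and no value here carries a spread between samples.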
